A study of Mus musculus with 9 samples.

Results

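A set of 10 CC chemokine genes, named by symbol, was followed through 3 groups of BMDC, dendritic cells derived in culture from mouse bone marrow. Dendritic cells take up antigen and present it to T cells. The genes were Ccl2, Ccl3, Ccl4, Ccl5, Ccl6, Ccl7, Ccl9, Ccl12, Ccl17 and Ccl22. Each was taken as the row of the deposited count table whose transcript identifiers map to that symbol, and each symbol had 1 row, so that 10 of 38887 rows are described. Of these, 9 passed the filter on low counts and were tested. Ccl12 did not pass it, and Ccl7 passed through the untreated group, where it is highest.

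The groups were untreated BMDC, BMDC exposed to lysophosphatidic acid (LPA) for 2 h, and BMDC exposed to LPA for 6 h, with 3 RNA-seq libraries each. LPA is a lipid messenger sensed by receptors of the G protein-coupled kind, and the series title places the work in the study of tumor-derived LPA and type I interferon in ovarian cancer. The labels state no LPA dose, vehicle, mouse strain, age or culture factors, nor when untreated cells were taken. They leave unsaid whether replicates came from different mice or cultures. The p-values thus speak to the spread among these 9 libraries alone, and that spread may be technical.

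Library totals ran from 29628817 to 84596899 counts. Replicate 2 at 2 h was the deepest library. Its counts differed from those of the other libraries of its group by 23.7 and 33.7 chi-square units per degree of freedom. The remaining pair of that group differed by 14.6, and pairs within the other groups by 7.35 to 13.1. Such units can grow with library depth, so they do not show whether replicate 2 at 2 h stood apart from its group. Of 14 dendritic cell markers 13 were above the filter, among them Itgax (mean 1361 CPM in untreated cells, CPM being counts relative to the scaled library size) and Cd74 (3597 CPM), while Cd209a was close to 0. Their summed level was 8154 to 9405 CPM untreated, 8694 to 9565 at 2 h and 7536 to 8276 at 6 h, where 2 of the 13 were higher and 6 lower. All 12 macrophage markers were above the filter too, with a summed level of 4139 to 4210.3 CPM in untreated libraries, 5129.7 to 5267 at 2 h and 5366 to 5612 at 6 h. Cd14 alone went from a mean of 106 CPM to 856 and 1078, and at 6 h 5 of the 12 were higher and 6 lower. Among all tested genes 26.4% were higher and 25.7% lower at 6 h. Neutrophil markers summed to 15.1 to 20.7 CPM untreated, 13.0 to 18.2 at 2 h and 8.6 to 10.6 at 6 h, with 3 of 7 tested lower at 6 h, and eosinophil markers to 56.9 to 58.1, 56.5 to 61.4 and 45.8 to 50.9 CPM, with 2 of 4 tested lower. Of single markers, Ly6g (neutrophils), Cpa3 and Mcpt4 (mast cells) and Cd3e (T cells) were at or near 0, but others of these lists were not. In untreated cells Csf3r of the neutrophil list had a mean of 10.2 CPM. Gata2 of the mast cell and basophil list had 9.79 CPM, and that list summed to 9.13 to 11.1 CPM. The T and NK cell list, with Lck at 0.862 CPM, summed to 1.48 to 1.56 CPM. In bulk libraries fewer cells of a type and less RNA per cell cannot be told apart, and the part of such shifts in the chemokine results was not tested.

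CC chemokines are small secreted proteins with adjacent cysteines near the amino terminus, which guide leukocytes by binding G protein-coupled receptors of the CCR family. CCL2, CCL7 and CCL12 are ligands of CCR2 on monocytes, CCL3 and CCL5 act on CCR1, and CCL4 is a close relative of CCL3. CCL6 and CCL9 are ligands of CCR1 made in quantity by myeloid cells of rodents, and CCL17 and CCL22 attract CCR4-bearing T cells and are typical products of dendritic cells.

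The genes lie in 2 groups of neighbours on GRCm38 (the assembly called mm10), with coordinates from GENCODE M21. On chromosome 11, Ccl2 (82035571 to 82037453), Ccl7 (82045712 to 82047525) and Ccl12 (82101845 to 82103400) follow each other on the plus strand. Further along are Ccl5 (83525778 to 83530518), Ccl9 (83572919 to 83578636), Ccl6 (83587882 to 83593087) and Ccl3 (83647844 to 83649355) on the minus strand, and Ccl4 (83662584 to 83664683) on the plus strand. Ccl22 (94745590 to 94751699) and Ccl17 (94810453 to 94812036) lie on the plus strand of chromosome 8, with 58753 bases between them. The libraries kept no strand, so reads of overlapping genes on opposite strands cannot be told apart. Ccl6 overlaps E230016K23Rik, which had 1037 counts over all libraries, and Ccl2 overlaps Gm17268, which had 0. The coding sequences of the closest pair, Ccl6 and Ccl9, were identical at 70.6% of 344 aligned bases, with at most 23 identical bases in a row. No window of 50 transcript bases was shared with another gene for 9 members, and for Ccl9 59 of 2996 windows were.

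**Figure D1:**
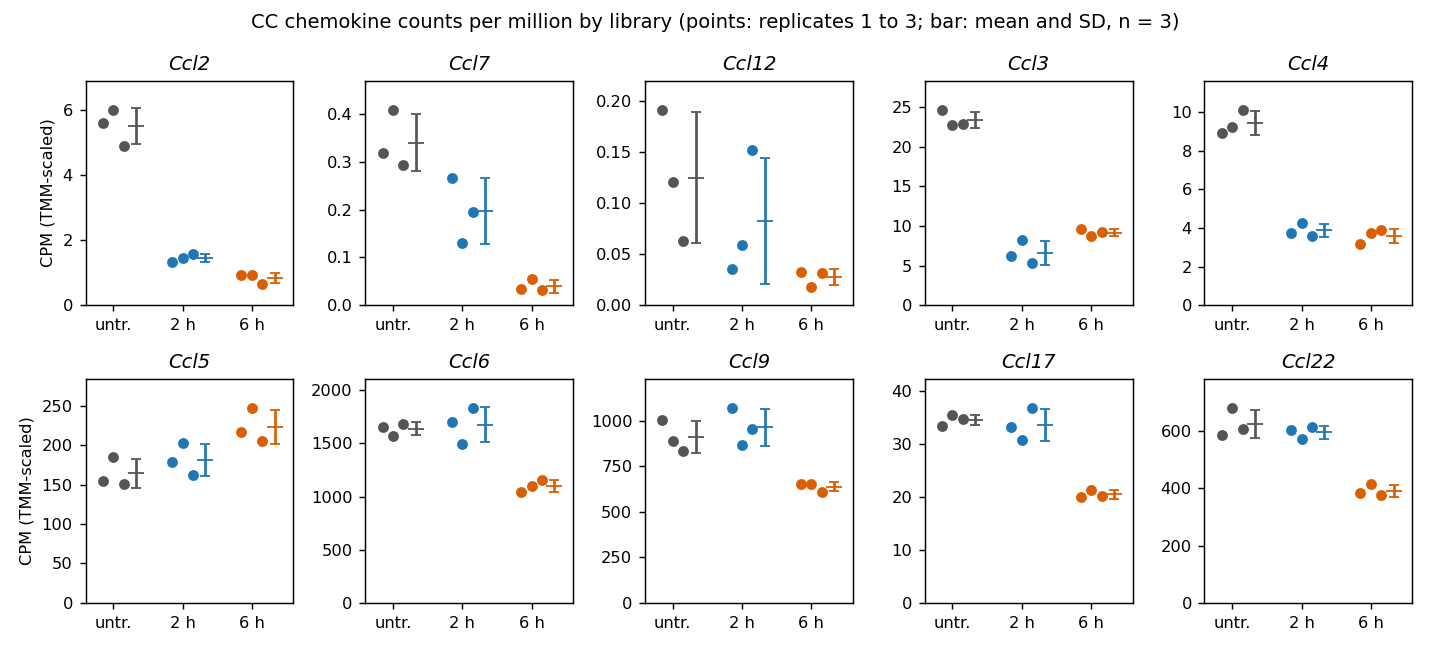
CPM (y axis, TMM-scaled, linear and starting at 0, a scale for each gene) of the 10 CC chemokines in the 3 untreated, 3 LPA 2 h and 3 LPA 6 h libraries; points are replicates 1 to 3 and the bar is the mean with its SD. Ccl2, Ccl3 and Ccl4 are lower at both times, Ccl6, Ccl9, Ccl17 and Ccl22 are lower at 6 h, and Ccl5 is higher at 6 h.

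At 2 h of LPA 3 of the 9 tested genes were lower than in untreated cells, Ccl2, Ccl3 and Ccl4, where 19.2% of all 14363 tested genes were lower. None of the 9 was higher, where 19.3% of all genes were. By edgeR 0 of the 9 were higher at an unadjusted p under 0.05 too, DESeq2 and limma-voom likewise called 0 higher, and edgeR with the replicate number as a block called 1, Ccl5. At 6 h all 9 differed from untreated cells, where 52% of all genes did: 8 were lower (25.7% of all genes) and 1, Ccl5, was higher (26.4%). A gene was called at a Benjamini-Hochberg adjusted p under 0.05 in edgeR's quasi-likelihood test, which is the source of each adjusted p, log2 fold change and standard error (SE) given as edgeR's.

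Calls were common in these data, with 38.5% of all tested genes called in either direction at 2 h, beside 3 of the 9, so the share of members called then is no higher than the background. Called and at least 2-fold lower were 1.46% of all genes and 3 of the 9 at 2 h. At 6 h they were 4.48% of all genes and 4 of the 9, namely Ccl2, Ccl3, Ccl4 and Ccl7. The median log2 fold change of the 9 was -0.07 at 2 h and -0.75 at 6 h, where that of all genes was -0.001 and 0.007. Because Ccl7 passed the filter only through its high group, these counts and medians describe the members and test nothing.

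**Figure D2:**
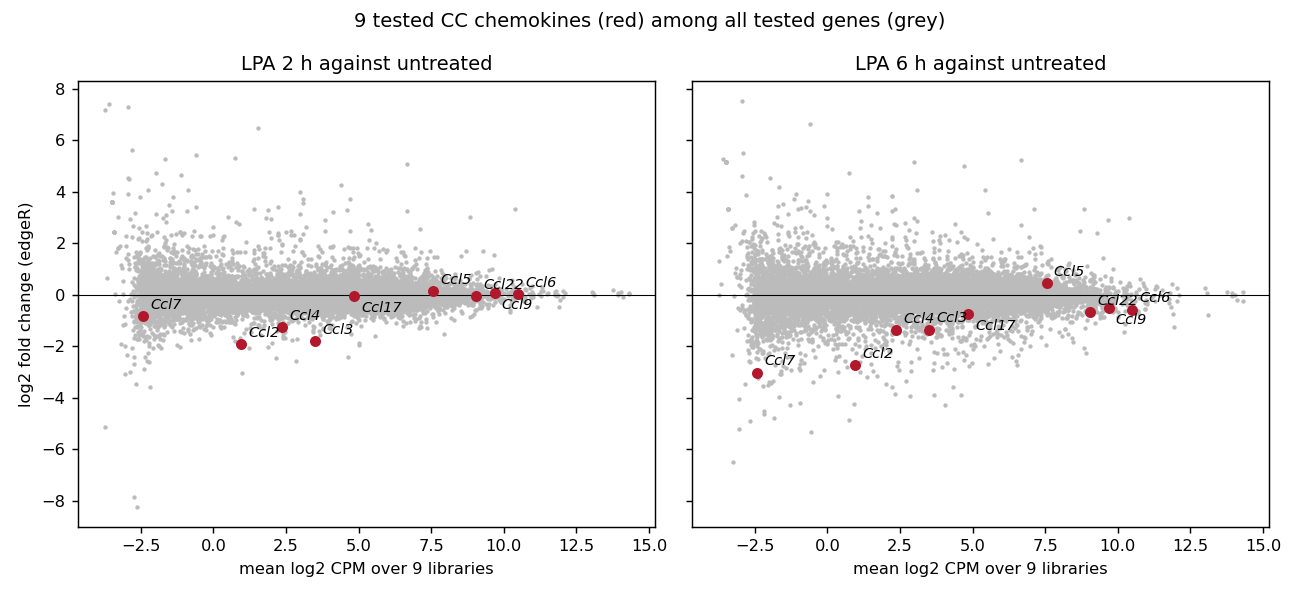
Log2 fold change from edgeR (y axis) against mean log2 CPM over the 9 libraries (x axis) for all tested genes (grey) and the 9 tested CC chemokines (red, labelled), at 2 h and 6 h of LPA against untreated. At 2 h Ccl2 (-1.92), Ccl3 (-1.81) and Ccl4 (-1.27) lie at the lower edge of the cloud, and at 6 h all labelled genes but Ccl5 lie below 0.

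Of the CCR2 ligands, Ccl2 fell at both times, and Ccl7 and Ccl12 were scarce. Ccl2, the monocyte chemoattractant, was measured at 5.62, 6.00 and 4.90 CPM untreated, 1.33, 1.46 and 1.57 CPM at 2 h, and 0.92, 0.926 and 0.654 CPM at 6 h. The 3 groups did not overlap, with untreated highest and 6 h lowest. Ccl2 fell 3.79-fold at 2 h (log2 fold change -1.92 ± 0.14 SE, edgeR adjusted p = 7.94e-07) and 6.72-fold at 6 h (-2.75 ± 0.16, edgeR adjusted p = 9.78e-08). It fell further between 2 h and 6 h, by 0.83 ± 0.17 on the log2 scale (edgeR adjusted p = 0.00154). At 2 h 33 of the 14363 tested genes had a lower log2 fold change than Ccl2, and at 6 h 55 did.

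Ccl7, its neighbour and a ligand of CCR2 and other receptors, was scarce. Untreated libraries held 15, 27 and 14 counts of it, 2 h libraries 15, 11 and 9, and 6 h libraries 1, 3 and 2, or 0.318, 0.408 and 0.294, then 0.267, 0.13 and 0.196, then 0.0329, 0.0545 and 0.0311 CPM. The groups did not overlap, and 6 h was lowest. The difference at 2 h did not pass the test (-0.84 ± 0.33, edgeR adjusted p = 0.0603), though it passed with limma-voom (-0.88, adjusted p = 0.0412) and without replicate 1 at 2 h (-1.13, edgeR adjusted p = 0.0393). At 6 h against untreated edgeR gave -3.03 ± 0.46 (adjusted p = 0.000142), and between the times -2.19 ± 0.49 (edgeR adjusted p = 0.00304), for a gene that passed the filter through its high group. With no filter edgeR gave -3.02 ± 0.52 (adjusted p = 5.48e-05) and -2.20 ± 0.55 (adjusted p = 0.00304), and -0.81 ± 0.40 at 2 h (adjusted p = 0.166). Summed over the group, 56 untreated counts stood against 6 at 6 h, a depth-scaled ratio of 8.69 with an exact 95% interval of 3.75 to 24.7 that covers counting error only.

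Ccl12, the third CCR2 ligand of the cluster, had counts of 9, 8 and 3 untreated, 2, 5 and 7 at 2 h, and 1, 1 and 2 at 6 h. As CPM, the 2 h libraries (0.0356, 0.0591 and 0.152) overlapped the untreated ones (0.191, 0.121 and 0.0631), and the 6 h libraries (0.0329, 0.0182 and 0.0311) lay below both. The untreated counts summed to 20 and those at 6 h to 4, a depth-scaled ratio of 4.65 (exact 95% interval 1.56 to 18.7). With no filter, edgeR gave a log2 fold change of -2.11 ± 0.80 at 6 h (adjusted p = 0.0452) and -0.65 ± 0.65 at 2 h (adjusted p = 0.555).

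At 2 h Ccl3 and Ccl4 fell, and Ccl5 did not pass the test. Ccl3, macrophage inflammatory protein 1 alpha, was measured at 24.6, 22.7 and 22.9 CPM untreated, 6.26, 8.22 and 5.28 CPM at 2 h, and 9.59, 8.68 and 9.23 CPM at 6 h. All treated libraries lay below all untreated ones, and the 6 h libraries lay above the 2 h libraries. Ccl3 fell 3.51-fold at 2 h (-1.81 ± 0.13, edgeR adjusted p = 1.32e-06) and was 2.56-fold lower at 6 h (-1.36 ± 0.12, edgeR adjusted p = 6.04e-06). The rise from 2 h to 6 h was 0.46 ± 0.13 on the log2 scale (edgeR adjusted p = 0.0134), and its call was lost without replicate 1 at 2 h (0.41, edgeR adjusted p = 0.0513). Leaving out replicate 2 at 2 h, the highest of its group for Ccl3, gave -2.02 ± 0.09 at 2 h and 0.65 ± 0.09 between the times. Leaving out replicate 3 at 2 h, the lowest of its group, gave -1.68 ± 0.1 at 2 h. Over all left-out libraries the rise between the times ran from 0.33 to 0.65.

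Ccl4, macrophage inflammatory protein 1 beta, was measured at 8.90, 9.25 and 10.1 CPM untreated, 3.75, 4.26 and 3.61 CPM at 2 h, and 3.19, 3.74 and 3.88 CPM at 6 h. Every treated library was below every untreated one, and the treated groups overlapped each other. Ccl4 fell 2.42-fold at 2 h (-1.27 ± 0.10, edgeR adjusted p = 1.39e-06) and was 2.59-fold lower at 6 h (-1.37 ± 0.10, edgeR adjusted p = 6.77e-07). No difference between the times passed the test (-0.10 ± 0.11, edgeR adjusted p = 0.469).

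Ccl5, known as RANTES and a ligand of CCR1 and CCR3, was the member that rose. It was measured at 155, 185 and 151 CPM untreated, 179, 202 and 162 CPM at 2 h, and 216, 247 and 205 CPM at 6 h. The 2 h libraries overlapped the untreated ones, while all 6 h libraries were above all others. The difference at 2 h did not pass the test (0.14 ± 0.11, edgeR adjusted p = 0.32). With the replicate number as a block it passed (0.14 ± 0.04, edgeR adjusted p = 0.00982). Whether that number pairs libraries in this comparison was left undecided. The 6 h value was 1.36-fold higher than untreated (0.45 ± 0.11, edgeR adjusted p = 0.00571). From 2 h to 6 h Ccl5 rose by 0.30 ± 0.10 (edgeR adjusted p = 0.0379), a call lost without replicate 1 or 3 at 2 h and without replicate 1 or 2 at 6 h, where edgeR's adjusted p ran from 0.0707 to 0.14. Leaving out replicate 2 at 2 h, the call held (0.39 ± 0.11, edgeR adjusted p = 0.0217). In same-numbered libraries Ccl5 was highest in replicate 2 of each group.

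**Figure D3:**
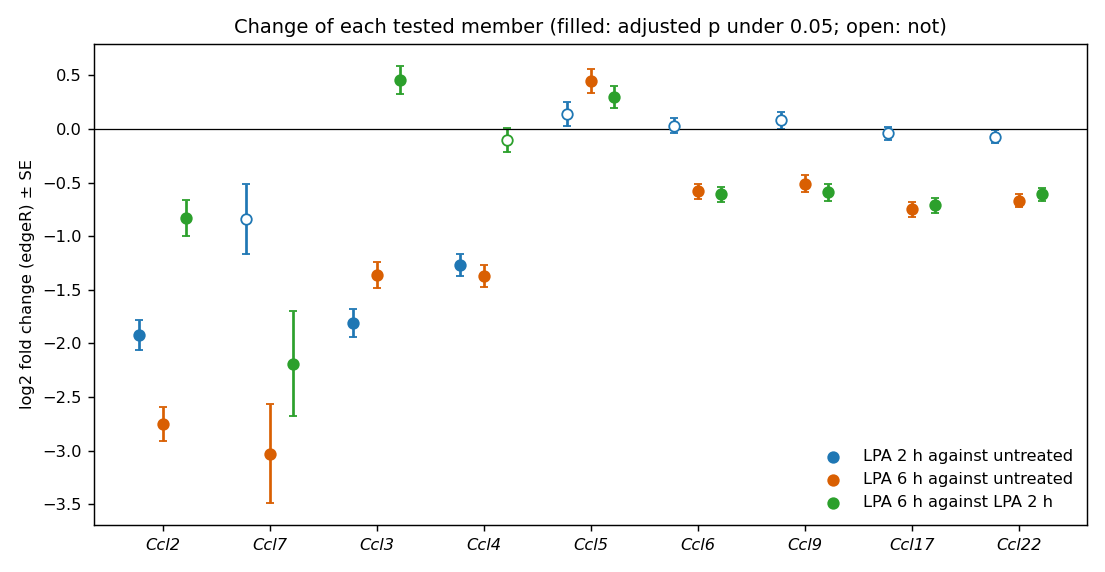
Log2 fold change from edgeR with its SE (y axis) for the 9 tested CC chemokines (x axis) at 2 h against untreated (blue), 6 h against untreated (orange) and 6 h against 2 h (green); filled points passed an adjusted p under 0.05 and open points did not. At 2 h the filled points are Ccl2, Ccl3 and Ccl4, all below 0, and at 6 h against untreated every point is filled, with Ccl5 (0.45) the one above 0.

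The sequences 250 bases before the transcription start are shown for Ccl3, which fell at 2 h, and for Ccl6, Ccl9 and Ccl17, which fell at 6 h, so that genes of both patterns can be read beside each other. They come from RefSeq (GRCm38.p6), are written 5′ to 3′ on the strand of the gene, and cover chr11:83649379-83649628 for Ccl3, chr11:83593088-83593337 for Ccl6, chr11:83578637-83578886 for Ccl9 and chr8:94810203-94810452 for Ccl17. Capitals mark matches to any motif searched. Of the 10 members 6 matched the promoter table, and Ccl2, Ccl4, Ccl5 and Ccl7 did not.
Ccl3: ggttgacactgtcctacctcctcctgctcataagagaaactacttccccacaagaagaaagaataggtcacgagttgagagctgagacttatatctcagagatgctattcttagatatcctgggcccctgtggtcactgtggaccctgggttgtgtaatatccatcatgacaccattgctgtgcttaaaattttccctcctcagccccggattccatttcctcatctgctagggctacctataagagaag
Ccl6: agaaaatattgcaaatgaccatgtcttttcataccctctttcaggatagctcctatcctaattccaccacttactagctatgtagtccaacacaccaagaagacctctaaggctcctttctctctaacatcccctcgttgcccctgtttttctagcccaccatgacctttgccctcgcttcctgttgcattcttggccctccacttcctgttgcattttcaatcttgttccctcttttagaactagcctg
Ccl9: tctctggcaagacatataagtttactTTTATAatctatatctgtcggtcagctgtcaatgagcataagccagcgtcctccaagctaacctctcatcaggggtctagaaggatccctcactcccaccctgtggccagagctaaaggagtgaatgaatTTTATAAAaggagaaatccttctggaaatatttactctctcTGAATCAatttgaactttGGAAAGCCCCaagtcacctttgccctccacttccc
Ccl17: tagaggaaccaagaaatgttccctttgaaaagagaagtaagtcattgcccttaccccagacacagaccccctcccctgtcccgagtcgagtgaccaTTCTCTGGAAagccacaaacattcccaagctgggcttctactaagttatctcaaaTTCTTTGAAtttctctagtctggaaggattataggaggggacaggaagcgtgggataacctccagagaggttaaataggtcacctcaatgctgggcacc

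Motifs were searched on both strands, and their background is the share of 32851 RefSeq windows of the same length that hold them. The NF-kappaB motif GGGNNTTCC, held by 4.98% of windows, was found in the Ccl9 window from 35 to 27 bases before the start. Its longer form, with 1 more T before the last bases, overlapped that match (1.41% of windows). Close by, from 53 to 47 bases, lay a match to the AP-1 motif TGANTCA (6.75%). In the Ccl17 window the STAT motif TTCNNNGAA (7.02%) was matched from 99 to 91 bases before the start. The STAT6 form of it, with 1 more base in the gap (5.85%), was matched from 154 to 145 bases. The TATA box TATAAA (12.4%) was found in the windows of Ccl9, in 2 stretches of which the nearer held it on both strands, and Ccl12. Also searched, with 0 matches in the 6 windows, were the CRE core TGACG (17.8%), the interferon response core, a pair of GAAA with 2 bases between (2.98%), the C/EBP motif TTGCGCAA (0.164%) and the GC box GGGCGG (32.7%). The windows of Ccl3, Ccl6 and Ccl22 held none of the motifs searched. That of Ccl22 (chr8:94745434-94745683) follows the RefSeq start and runs past the GENCODE start at 94745590. Part of it thus lies inside the gene as placed by GENCODE. A match is a description of letters and not a binding site, and no match says only that these letters are not in this window.

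The CCR1 ligands Ccl6 and Ccl9 were among the most abundant members and changed at 6 h. Ccl6 was measured at 1656, 1571 and 1683 CPM untreated, 1697, 1498 and 1832 CPM at 2 h, and 1043, 1095 and 1157 CPM at 6 h. The 2 h libraries lay on both sides of the untreated ones, and all 6 h libraries were below all others. Ccl6 did not pass the test at 2 h (0.03 ± 0.07, edgeR adjusted p = 0.732), fell 1.49-fold at 6 h against untreated (-0.58 ± 0.07, edgeR adjusted p = 2.37e-05) and fell by 0.61 ± 0.07 between the times (edgeR adjusted p = 4.83e-05).

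Ccl9 lies 9245 bases from Ccl6 on the same strand. It was measured at 1005, 889 and 837 CPM untreated, 1071, 868 and 954 CPM at 2 h, and 652, 654 and 611 CPM at 6 h. Again the untreated and 2 h libraries overlapped and the 6 h libraries were lowest. The 2 h difference did not pass (0.08 ± 0.08, edgeR adjusted p = 0.459), and the 6 h level was 1.42-fold lower than untreated (-0.51 ± 0.08, edgeR adjusted p = 0.000286). From 2 h to 6 h Ccl9 fell by 0.59 ± 0.08 (edgeR adjusted p = 0.000181).

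The CCR4 ligands Ccl17 and Ccl22 did not pass the test at 2 h and fell at 6 h. Ccl17, or TARC, was measured at 33.4, 35.4 and 34.7 CPM untreated, 33.3, 30.8 and 36.8 CPM at 2 h, and 19.9, 21.4 and 20.1 CPM at 6 h. The 6 h libraries lay below all others, and the remaining groups overlapped. Ccl17 did not pass the test at 2 h (-0.04 ± 0.06, edgeR adjusted p = 0.662) and fell 1.69-fold at 6 h (-0.75 ± 0.07, edgeR adjusted p = 2.19e-06).

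Ccl22, or macrophage-derived chemokine, was measured at 585, 680.3 and 608 CPM untreated, 604, 571 and 614 CPM at 2 h, and 383, 414 and 377 CPM at 6 h. The 6 h libraries were again lowest without overlap. It did not pass at 2 h (-0.07 ± 0.06, edgeR adjusted p = 0.426) and fell 1.6-fold at 6 h (-0.67 ± 0.06, edgeR adjusted p = 2.63e-06).

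From 2 h to 6 h itself, 48.7% of all tested genes and 8 of the 9 members were called, 24.4% of genes and 6 members lower, 24.3% and 2 members higher. Called and at least 2-fold lower were 3.43% of genes and 1 member, Ccl7. The 6 were Ccl2, Ccl6, Ccl7, Ccl9, Ccl17 and Ccl22, and the 2 were Ccl3 and Ccl5. Groups without overlap were found in 58.9% of genes and in the same number of members, 8. At 2 h against untreated groups were without overlap in 48.2% of genes and 4 members, and at 6 h in 63% of genes and all 9. The 3 comparisons share libraries, so each is given by its own values.

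Levels were compared between genes as CPM per kilobase of the coding transcript. In untreated cells the order was Ccl6 (1137 ± 40.7, mean ± SD, n = 3), Ccl5 (308 ± 35.4), Ccl9 (303 ± 28.6), Ccl22 (282 ± 22.5), Ccl17 (67.1 ± 1.95), Ccl3 (30.6 ± 1.36), Ccl4 (14.3 ± 0.943), Ccl2 (6.77 ± 0.689), Ccl7 (0.425 ± 0.075) and Ccl12 (0.233 ± 0.119). Ccl5, Ccl9 and Ccl22 overlapped in range with their neighbours in this order. At 6 h Ccl5 (419 ± 41.0) stood apart below Ccl6 (763 ± 39.7) and above Ccl9 (213 ± 8.08) and Ccl22 (177 ± 8.96), and Ccl12 and Ccl7 overlapped at the bottom. Taking the length of all exons of a row instead, a choice made after seeing the data, put Ccl5 behind Ccl9 and Ccl22, at rank 4, in untreated and 2 h cells, and left the order at 6 h as it was.

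Ccl6, Ccl9, Ccl17 and Ccl22 made up 83.2 ± 1.52% of the summed CPM per kilobase of the 10 genes in untreated cells, 83.5 ± 2.73% at 2 h and 73.2 ± 1.81% at 6 h. Ccl5 made up 13.5, 16.1 and 13.4% untreated, 15.1, 18.5 and 13.5% at 2 h, and 25.8, 27.5 and 23.8% at 6 h, so its 6 h libraries did not overlap the others. With the length of all exons its share was 9.65 ± 1.08% untreated, 10.7 ± 1.84% at 2 h and 18.1 ± 1.4% at 6 h. Ccl2, Ccl3 and Ccl4 together made up 2.4 ± 0.0377%, 0.753 ± 0.156% and 1.13 ± 0.0527%. The summed level of the 10 was 2149 ± 20.7, 2176 ± 114 and 1629.7 ± 56.2 CPM per kilobase. These shares move together because they sum to the whole.

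**Figure D4:**
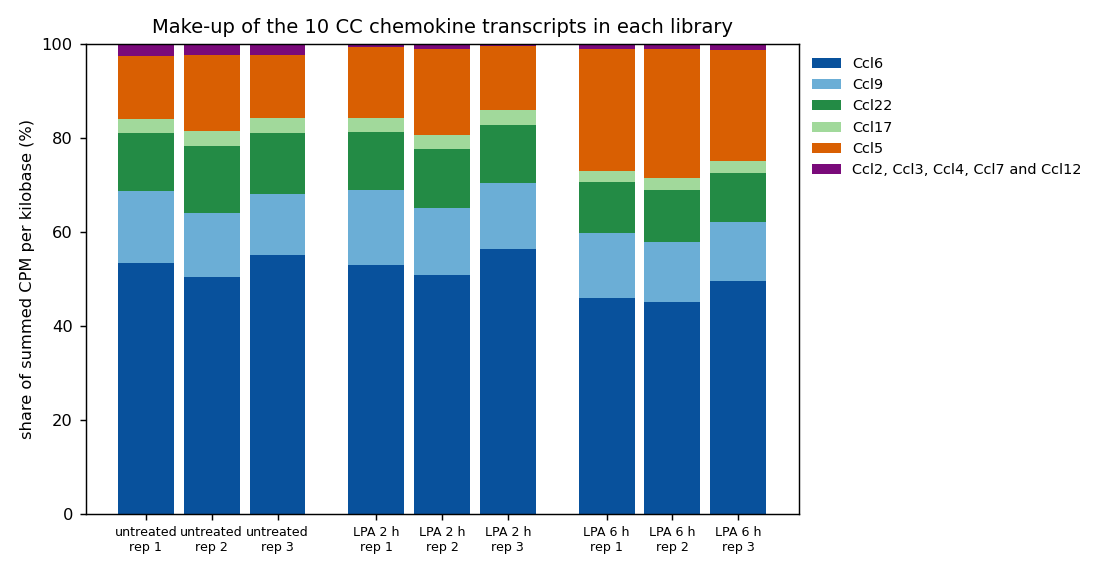
Share of the summed CPM per kilobase of the 10 CC chemokines (y axis, %) in each of the 9 libraries (x axis), stacked by gene, with the 5 scarcest genes joined. The length is that of the coding transcript, and the shares depend on it. Ccl5 takes 23.8 to 27.5% in the 6 h libraries and 13.4 to 18.5% in the others.

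Ratios within a library do not depend on depth or scaling, but their size depends on the length taken for each gene. In all 7 ratios were compared in 3 ways, 21 exact permutation tests (two-sided) in all, of which the smallest p with 3 against 3 is 0.1, or 0.175 after Benjamini-Hochberg adjustment. The Ccl5 to Ccl22 ratio (CPM per kilobase) was 1.1, 1.14 and 1.03 untreated, 1.23, 1.47 and 1.1 at 2 h, and 2.35, 2.49 and 2.27 at 6 h. Its 6 h values were above all others (exact permutation p = 0.1 against untreated, adjusted 0.175). With the length of all exons Ccl5 stood below Ccl22 in untreated cells (means of 171 and 268 CPM per kilobase) and at 2 h (188 and 257), and above it at 6 h (232 and 168). The Ccl3 to Ccl4 ratio was 2.15 ± 0.217 untreated, 1.45 ± 0.2 at 2 h and 2.21 ± 0.329 at 6 h, with the 2 h libraries below all others (exact permutation p = 0.1, adjusted 0.175, against either group). For the neighbours Ccl6 and Ccl9 the ratio was 3.77 ± 0.386 untreated, 3.64 ± 0.35 at 2 h and 3.6 ± 0.32 at 6 h, and all groups overlapped. Ccl22 to Ccl17 was 4.19 ± 0.228, 4.13 ± 0.226 and 4.44 ± 0.0663, and only the 2 h and 6 h groups did not overlap (exact permutation p = 0.1, adjusted 0.175).

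**Figure D5:**
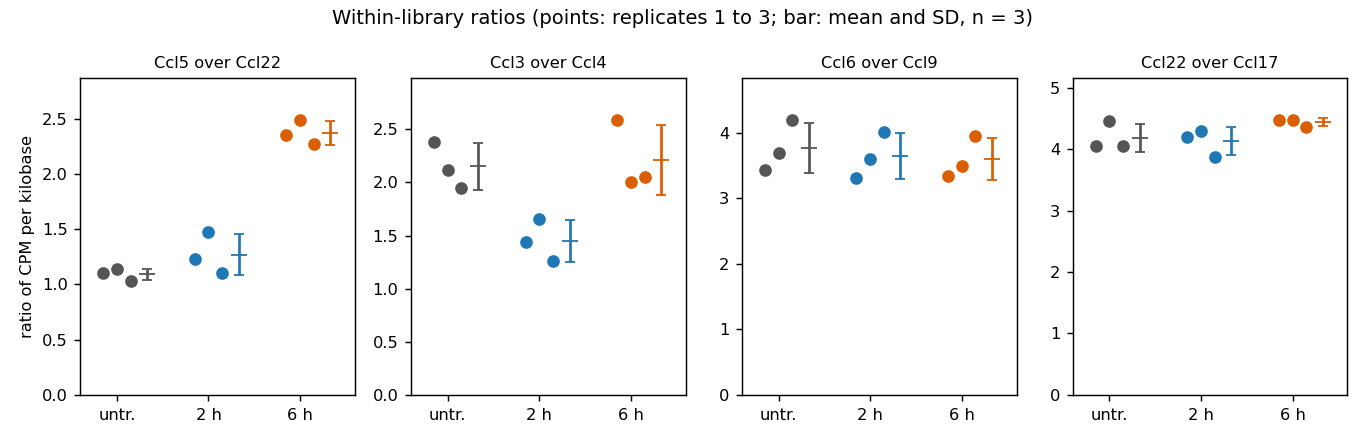
Ratio of CPM per kilobase of 2 CC chemokines within each library (y axis, linear from 0) for untreated, 2 h and 6 h libraries; points are replicates 1 to 3 and the bar is the mean with its SD. Ccl5 over Ccl22 is 2.27 to 2.49 at 6 h and 1.03 to 1.47 elsewhere, and Ccl3 over Ccl4 is lowest at 2 h.

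CC chemokine receptors and decoys were a list of 14 genes, of which 10 were tested, and the list also holds receptors of other ligands, such as Ccr7 and Ccr9. At each time 3 of the list were higher and 3 lower, where 19.3% and 19.2% of all tested genes were at 2 h. At 6 h those shares were 26.4% and 25.7%. Ccr1, the receptor of Ccl3, Ccl5, Ccl6 and Ccl9, rose from 200.5 ± 12.3 CPM to 312 ± 30.7 at 2 h (0.64 ± 0.07, edgeR adjusted p = 2.07e-05) and 397 ± 15.2 at 6 h (0.98 ± 0.07, edgeR adjusted p = 5.25e-07). Ccrl2, which binds chemerin and does not signal, rose from 17.5 ± 0.422 to 48.2 ± 6.16 CPM at 2 h (1.46, edgeR adjusted p = 1.18e-07) and stood at 28.1 ± 1.1 CPM at 6 h (0.69, edgeR adjusted p = 1.99e-05). The receptors below were chosen after their values were seen. Ccr2, the receptor of Ccl2, Ccl7 and Ccl12, fell from 68.2 ± 16.7 to 23.9 ± 6.19 CPM at 2 h (-1.52 ± 0.27, edgeR adjusted p = 0.00422) and 12.0 ± 2.67 CPM at 6 h (-2.53 ± 0.29, edgeR adjusted p = 0.000313). Ccr4, the receptor of Ccl17 and Ccl22, was scarce, at 0.895 ± 0.218, 0.839 ± 0.142 and 0.635 ± 0.05 CPM, and did not pass the test.

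Of 11 other CC chemokine genes 3 were tested, and Ccl1, Ccl11, Ccl20 and Ccl26 had 0 counts in all libraries. Ccl27a, a skin-homing chemokine, rose from 1.26 to 1.71 CPM at 2 h (0.45, edgeR adjusted p = 0.0485) and 2.48 CPM at 6 h (0.96, edgeR adjusted p = 0.000402). Ccl24, an eosinophil attractant, was 6.27, 6.11 and 4.09 CPM and fell at 6 h (-0.59, edgeR adjusted p = 0.00856). Ccl25 did not pass at either time.

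NF-kappaB, the transcription factor that drives many inflammatory chemokines, was read through a list of 16 genes. They were subunits, inhibitors and the genes of the activating kinase complex, Ikbkb, Chuk and Ikbkg. At 2 h 5 were higher (19.3% of all tested genes) and 3 lower (19.2%), and at 6 h 2 were higher (26.4%) and 7 lower (25.7%). The 2 higher at 6 h were kinase complex genes, Ikbkb (0.2, edgeR adjusted p = 0.00238) and Ikbkg (0.16, edgeR adjusted p = 0.00566). Ikbkg was also among the 5 higher at 2 h. The median log2 fold changes were 0.04 and -0.16, where those of all genes were -0.001 and 0.007. Rel, a subunit, rose at 2 h (0.57, edgeR adjusted p = 2.63e-05), and Tnfaip3, the A20 inhibitor, fell (-0.59, edgeR adjusted p = 5.74e-05). At 6 h Nfkbie, an inhibitor, fell (-0.76, edgeR adjusted p = 1.9e-06), as did the subunit Relb (-0.45, edgeR adjusted p = 4.05e-05).

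A list of 16 genes was named for the STAT6 and IRF4 axis, known to act on Ccl17 and Ccl22. It also holds genes of signalling by another cytokine, GM-CSF: Csf2ra, Csf2rb, Csf2rb2, Jak2, Stat5a, Stat5b and Cish. At 2 h 3 were higher (19.3% of all tested genes) and 7 lower (19.2%), and at 6 h 4 were higher (26.4%) and 8 lower (25.7%). Csf2rb, Csf2rb2 and Stat5b were among those higher at 6 h, and Csf2ra, Jak2 and Stat5a among those lower. The counts thus do not describe STAT6 and IRF4 genes alone. Il4ra, the interleukin 4 receptor chain, rose from 188 to 271 CPM at 2 h (0.53, edgeR adjusted p = 1.32e-06) and was 262 CPM at 6 h (0.48, edgeR adjusted p = 1.95e-06). Cish, a feedback inhibitor, rose from 7.37 to 41.6 CPM at 2 h (2.48, edgeR adjusted p = 7.83e-06), and Il13ra1 fell at 6 h (-0.66, edgeR adjusted p = 2.54e-06). The factors the list is named for were picked after their values were seen. Stat6 had means of 267, 244 and 269 CPM in the 3 groups and was lower at 2 h only (-0.13, edgeR adjusted p = 0.0234). Irf4 had means of 37.2, 33.9 and 38.0 CPM and passed the test at neither time.

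For each tested member the 2 other genes with the most similar log2 CPM over the 9 libraries were named, out of 9329 candidates. The closest was Cox15 for Ccl6 (Pearson r = 0.998), Slc7a5 for Ccl17 (0.998), Acot7 for Ccl22 (0.997), Qrsl1 for Ccl2 (0.996), Tnf for Ccl3 (0.993), Fermt3 for Ccl7 (0.993), Nol9 for Ccl4 (0.989), Sdhb for Ccl9 (0.989) and Zcchc17 for Ccl5 (0.977). The second was Dstn, Prdx1, Slc48a1, Prkcd, Ptgir, Nadk, Parp3, Slc25a5 and Uqcrh, in the same order of members, at 0.976 to 0.998. Among the members themselves Ccl17 and Ccl22 were closest (0.986), and Ccl5 correlated negatively with each other tested member (-0.863 to -0.399). These are descriptions over 9 libraries that share groups and normalization, and they do not show shared control.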

How the data were processed

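RNA of mouse BMDC was sequenced in 9 libraries (3 untreated, 3 at 2 h and 3 at 6 h of LPA), made by a non-stranded mRNA method per the labels' protocols. The authors deposited estimated counts per gene as whole numbers that carry each library's depth. RSEM 1.2.3, DESeq2 and the build mm10 are named in the submitters' processing notes. Rows were matched by transcript identifier to GENCODE M21: 37776 of 38887 rows matched 1 gene and held 98.46% of counts.

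The filter was filterByExpr with a count of 10 and a total of 15, and 14363 genes passed it. Counts were scaled with TMM and fitted over all 9 libraries with edgeR 4.0.16 in R 4.3.3 (glmQLFit, robust, and glmQLFTest), with Benjamini-Hochberg adjustment over all tested genes and calls under 0.05. Standard errors are |log2 fold change| over the root of the F statistic. CPM used TMM-scaled library sizes. The fit was tested on simulated data.

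Alternatives were DESeq2 1.42.0, limma-voom (limma 3.58.1), other scalings, no filter, thinning to equal depth, only the 6 libraries compared, rows of a symbol summed, the replicate number as a block, and leaving out each library in turn. Deviations of same-numbered libraries correlated at 0.178, 0.144 and 0.151 for 6 h against untreated, over 0.1 in each pair, so the numbers were taken to pair libraries there. For 2 h against untreated 1 pair was at 0.0904, and for 6 h against 2 h 1 was at 0.0347, so there pairing was left undecided. For 2 h against untreated the other same-numbered pairs were at 0.165 and 0.184. Differently numbered libraries correlated negatively there (-0.148 to -0.0314). Named genes were the members, the 2 tested genes with the smallest p of each list per comparison with untreated, the 2 genes most like each tested member among those with a mean of at least 5 CPM, and Cx3cl1, Ciapin1 and Coq9. The members and lists were chosen with earlier results of these data known. Some genes of the lists are not reported here.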

Additional observations from a re-analysis of the deposited data

Results flagged for a closer look

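For 8 members the level differed between 6 h and 2 h of LPA, by edgeR's quasi-likelihood test. Untreated cells have no stated time, so time of LPA and time in culture cannot be told apart. The log2 difference, 6 h minus 2 h, was -0.83 for Ccl2, -2.19 for Ccl7, -0.61 for Ccl6, -0.59 for Ccl9, -0.71 for Ccl17 and -0.61 for Ccl22. It was 0.46 for Ccl3, which was lower than untreated at both times and less so at 6 h, and 0.30 for Ccl5. The call of Ccl3 was lost without replicate 1 at 2 h (edgeR adjusted p = 0.0513). That of Ccl5 was lost with no filter (edgeR adjusted p = 0.124) and in some fits with 1 library left out (up to 0.14). Ccl7 rests on 6 counts at 6 h and passed the filter through its high group.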

How the results depend on the processing

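Of 509 values recomputed for the members, 498 kept their direction and side of the threshold, 6 lost the call, 3 gained it and 2 changed sign. Some of the 509 could hardly change direction. Leaving out a library of the group outside a comparison kept both compared groups whole. Summing the rows of a symbol left members as they were, since each had 1 row. The 498 is thus not a count of independent checks. The 2 were uncalled values at 2 h: Ccl6 at -0.04 without replicate 3 at 2 h, and Ccl17 at 0.02 without replicate 2 at 2 h. Over all left-out libraries Ccl6 ran from -0.04 to 0.11 and Ccl17 from -0.11 to 0.02. With no filter 1 member was higher between the times in place of 2, since Ccl5 (0.31, adjusted p = 0.124) was no longer called. Thinned to equal depth, 7 members in place of 8 were lower at 6 h, and 5 in place of 6 were lower between the times when thinned or with only the 6 libraries compared, since Ccl7 did not pass the filter there. Leaving out each library in turn, members higher between the times ran from 0 to 2 and members lower at 2 h from 3 to 4. Genes called ran from 4352 to 5580 at 2 h, 6226 to 7896 at 6 h and 5767 to 7425 between the times. The cause was not tested.

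With the replicate block, 1 member in place of 0 was higher at 2 h: Ccl5, at 0.14 ± 0.04 (edgeR adjusted p = 0.00982). The block changed no other call among the members, and at 6 h against untreated 8 were lower and 1 higher with or without it. Scaling moved the median of all genes by at most 0.05 (log2). Counts limit Ccl7 and Ccl12, with 6 and 4 counts in all at 6 h.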

Other observations

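AU-rich words in the 3′UTR, of which ATTTA is the core, are known to bring messenger RNA under decay factors such as tristetraprolin. The search for them was chosen after the values of the members were seen. Of the 11 genes listed as decay and stability factors, 5 were higher and 3 lower at 2 h, and 5 were higher and 2 lower at 6 h. The shares of all tested genes were 19.3% and 19.2% at 2 h, and 26.4% and 25.7% at 6 h. Zc3h12a, the ribonuclease Regnase-1, rose at 2 h (0.47, edgeR adjusted p = 1.12e-05) and at 6 h (0.57, edgeR adjusted p = 1.63e-06). Zfp36, which encodes tristetraprolin, rose at 2 h (0.43, edgeR adjusted p = 9.81e-05), and Hnrnpd, another AU-binding factor, fell at 6 h (-0.47, edgeR adjusted p = 3.24e-05).

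In GENCODE M21 the 3′UTR of Ccl3 held 5 ATTTA words in 409 bases. At least as many were found in 1.14% of 2010 genes whose 3′UTR was 0.8 to 1.25 times as long. Ccl12 held 5 in 167 bases, and 0.509% of 1375 genes of like length held at least as many. Of the others, Ccl2 held 1 (at least as many in 35.2% of genes of like length), Ccl4 2 (12.9%), Ccl7 2 (19.6%), Ccl6 4 in 943 bases (17.3%), Ccl9 5 in 2465 bases (46.6%) and Ccl22 2 in 1813 bases (72.5%). The longer form of the word, ATTTA with TT on either side, was found 0 times in the 10 members, and in 1.32 to 13.0% of genes of like length. Ccl5, the member that rose, and Ccl17, which fell at 6 h, held 0. The densest stretches of the first pair are given below with the ATTTA words in capitals, from base 139 to 168 of the 3′UTR in Ccl3 and from base 92 to 121 in Ccl12.
Ccl3: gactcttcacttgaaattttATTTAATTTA
Ccl12: ATTTAaacaaacttgcttaaataatATTTA

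Genes that trim or anchor chemokines were a list of 8, 2 higher and 2 lower at 2 h and 3 higher and 4 lower at 6 h. Shares over all tested genes were 19.3% and 19.2% at 2 h, and 26.4% and 25.7% at 6 h. Sdc1, a heparan sulfate proteoglycan, rose from 159 ± 16.2 to 518 ± 109.9 CPM at 2 h (1.70, edgeR adjusted p = 5.63e-05) and 887 ± 61.4 CPM at 6 h (2.48, edgeR adjusted p = 4.38e-06). Mmp14, a membrane metalloproteinase, fell from 393 ± 4.15 to 307 ± 3.02 CPM at 2 h (-0.36, edgeR adjusted p = 1.33e-05) and 258 ± 1.95 CPM at 6 h (-0.61, edgeR adjusted p = 1.92e-07). Among the neighbours of Ccl17 and Ccl22, Cx3cl1, the CX3C chemokine gene, passed the test at neither time (17.6, 16.2 and 16.4 CPM). Coq9 passed at neither time too, and Ciapin1 rose at 2 h (0.59, edgeR adjusted p = 1.25e-05) and did not pass at 6 h (0.11, edgeR adjusted p = 0.173).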
